A study of Mus musculus with 12 samples.

Results

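The genes described here encode interferon-inducible GTPases of CD4+ T cells: 8 guanylate-binding proteins (Gbp2, Gbp3, Gbp4, Gbp5, Gbp6, Gbp7, Gbp8 and Gbp9) and 2 immunity-related GTPases (Irgm1 and Igtp). These 10 genes were taken by name from the 55414 gene records of the count table, with earlier results of these data known. RNA was sequenced from CD4+ T cells isolated by negative selection from the spleen of wild-type male BALB/c mice aged 18 weeks. In the LIP group, a silk ligature around the second maxillary molars had induced periodontitis, and the CTL mice were anaesthetised without a ligature. Cells were taken fresh (day 0) or after 2 days of culture with interleukin-2 at 10 ng/mL, anti-TCRβ at 1 µg/mL and anti-CD28 at 1 µg/mL as the labels give them (day 2), with 3 libraries in each of the 4 groups. On day 2 the sample labels of CTL 93 and LIP 96 name anti-CD29, and those of CTL 97 and LIP 97 name anti-CD30, in place of anti-CD28. The study's methods name anti-CD28 alone and give other concentrations of interleukin-2 and anti-TCRβ than the labels do, and which is right was not settled. No source used here says whether a library came from 1 mouse or from pooled mice, so p-values measure only the spread between these libraries.

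Guanylate-binding proteins (GBPs) are large GTPases that assemble on the membranes of vacuoles that hold bacteria or parasites, and on bacteria free in the cytosol, where they help to break these membranes and to start inflammasome signalling. Immunity-related GTPases (IRGs) work beside them. The effector IRGs (Iigp1, Tgtp1, Tgtp2 and Ifi47) load onto pathogen vacuoles, whereas the regulatory IRGs (Irgm1, Irgm2 and Igtp, also called Irgm3) sit on the cell's own membranes and keep the effectors inactive there. Both families are induced mainly by interferon-γ, which acts through GAS elements and induces IRF1. Type I interferon reaches them through a complex that holds STAT2 and IRF9 and binds interferon-stimulated response elements (ISRE). In T cells the families are also known as part of the interferon response, and loss of Irgm1 impairs the survival of activated CD4+ T cells.

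Total expected counts ranged from 6249094 to 12866751 per library, so that 3 counts corresponded to 0.269 to 0.452 CPM (counts scaled to a common library total). The T cell markers Cd3e, Cd3g, Cd4, Trac, Lck and Cd28 summed to between 2091 and 3099 CPM in the 12 libraries, against 4.43 to 13.2 CPM for Cd8a and Cd8b1 and 2.78 to 13.9 CPM for 9 myeloid genes, of which S100a8 and S100a9 were at 0 in every group. A set of 6 activation genes (Il2ra, Cd69, Tnfrsf4, Mki67, Top2a and Myc) summed to 525.5 to 673 CPM in CTL and 482 to 490.2 CPM in LIP on day 0, without overlap, and to 5703 to 6458 CPM on day 2. On day 2, LIP 90 stood apart from LIP 96 and LIP 97: the chi-square per gene of its counts was 43.5 and 34.8 against them, compared with 10.8 between LIP 96 and LIP 97. Where a named gene was also fitted without LIP 90 and its call on day 2 changed, both values are given. In bulk RNA of this kind, fewer expressing cells and less RNA per cell cannot be told apart.

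The members lie on 3 chromosomes (GRCm39, GENCODE M39). Gbp5 (chr3:142199739-142228105), Gbp7 (chr3:142236044-142255910), Gbp3 (chr3:142265731-142278979) and Gbp2 (chr3:142326349-142343779) follow each other on the plus strand of chromosome 3. Gbp8 (chr5:105162016-105287452), Gbp9 (chr5:105224332-105287452), Gbp4 (chr5:105263633-105287609) and Gbp6 (chr5:105418568-105443751) lie on the minus strand of chromosome 5. Irgm1 (chr11:48752795-48763164, minus strand) and Igtp (chr11:58089840-58098417, plus strand) lie apart on chromosome 11. The annotated spans of Gbp4, Gbp8 and Gbp9 overlap on one strand, and the span of Igtp overlaps that of Irgm2, so that some reads there could have been counted for a neighbour. Of all stretches of 100 bases in the canonical Gbp6 transcript, 82.2% also occurred in the record Gm43302 and 60.6% in Gbp10. The level of Gbp6 alone is thus uncertain, and its counts are also given summed with these copies. The shared part was 10.1% for Gbp7, 7.04% for Igtp, 6% for Gbp8 and 3.27% or less for the other members, with 0% for Gbp2, Gbp5 and Irgm1.

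Promoter sequences were taken from RefSeq (GRCm38.p6), which gave 6 of the 10 members (Gbp2, Gbp3, Gbp5, Gbp7, Irgm1 and Igtp) and no entry for Gbp4, Gbp6, Gbp8 and Gbp9. Each was found once in GRCm39 and is placed there. The stretches below end at the base before the RefSeq start and show where the ISRE core GAAANNGAAA (TTTCNNTTTC on the opposite strand) and the GAS letters TTCNNNGAA, both in capitals, stand in the genes whose RNA is described in the following paragraphs. A further GAS match of Gbp5, 245 to 237 bases before its start (TTCTGGGAA), lies outside the stretch shown. They are from the reference genome and not from BALB/c.
Gbp2 (chr3:142326364-142326423, plus strand): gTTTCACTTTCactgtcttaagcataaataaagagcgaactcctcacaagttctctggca
Gbp3, upstream of its 2 starts (chr3:142265755-142265804, plus strand): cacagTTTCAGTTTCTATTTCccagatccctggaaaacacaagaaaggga
Gbp5 (chr3:142202525-142202694, plus strand): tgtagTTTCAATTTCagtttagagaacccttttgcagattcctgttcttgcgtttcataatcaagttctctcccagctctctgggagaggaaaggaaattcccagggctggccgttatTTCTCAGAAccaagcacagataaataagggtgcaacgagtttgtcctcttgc
Gbp7 (chr3:142235987-142236096, plus strand): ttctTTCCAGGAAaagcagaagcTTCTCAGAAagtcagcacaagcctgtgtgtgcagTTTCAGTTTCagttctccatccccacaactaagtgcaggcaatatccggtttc
Igtp (chr11:58090332-58090381, plus strand): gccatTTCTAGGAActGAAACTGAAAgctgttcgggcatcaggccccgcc
Irgm1 (chr11:48762248-48762277, minus strand): GAAATAGAAACCGAAActgattctcaattc

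Searched on both strands within 250 bases before the start, the ISRE core was present in all 6 members with a RefSeq promoter, and in 2.98% of 32851 promoters of this length from the same table. It began 30 bases before the start of Irgm1, 34 bases before that of Igtp, 45 before Gbp3, 53 before Gbp7, 59 before Gbp2 and 165 before Gbp5. Irgm1 (GAAATAGAAA and GAAACCGAAA) and Gbp3 (TTTCAGTTTC and TTTCTATTTC) each have 2 overlapping cores. The second start of Gbp3 had no match. GAS letters were present in Gbp5, Gbp7 and Igtp and in 7.02% of all promoters. In Igtp they ended 2 bases before the ISRE core. Irgm2, Tgtp1, Tgtp2 and Gm12250 had both motifs too, while Irgm1 had no GAS letters. These are matches of letters, not sites shown to be bound, and their distances depend on the annotated start: the canonical GENCODE transcript begins 53 to 263 bases further upstream in Gbp2, Gbp5, Gbp7 and Igtp, and at the same base in Irgm1. In Gbp3 its offset upstream was -308 bases, so that it begins downstream of the start with the cores, near the second start, which had no match.

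In fresh CTL cells, Igtp had the highest level per length of the 10 members, with 84.1 ± 3.18 CPM per kilobase of canonical transcript (SD, n = 3). Gbp4 followed with 66.6 ± 2.00 CPM per kilobase, and then Gbp8 with 53.8 ± 2.01 and Irgm1 with 50.7 ± 4.21 CPM per kilobase, whose libraries overlapped. Gbp7, Gbp2 and Gbp9 stood at 35.7, 32.0 and 28.1 CPM per kilobase, in that order and without overlap between neighbours. At the low end, Gbp5 (13.4 ± 1.45) and Gbp3 (12.0 ± 1.42 CPM per kilobase) overlapped, and Gbp6 was lowest with 6.85 ± 1.14 CPM per kilobase. The fresh LIP cells gave the same order except that Gbp9 (32.7 CPM per kilobase) stood above Gbp2 (28.0). With the length of all exons in place of the canonical transcript, an alternative chosen after seeing the data, Igtp stayed first and Gbp6 last in fresh CTL cells, but Gbp7 moved from rank 5 to rank 2 and Gbp2 from rank 6 to rank 3.

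After culture Gbp2 moved to the top of the order. It reached 173.3 ± 30.5 CPM per kilobase in CTL, where it came second to Igtp (213 ± 27.8) and overlapped with it, and 298 ± 72.1 in LIP, where it came first and again overlapped with Igtp (226 ± 24.3). Its share of the summed level per kilobase of the 10 members went from 8.35% ± 0.38 in fresh CTL cells to 22.3% ± 1.73 in cultured CTL cells, and from 7.05% ± 0.171 to 27.3% ± 3.08 in LIP. The share of Gbp8 went the other way, from 14.1% ± 0.711 to 4.04% ± 0.597 in CTL and from 15.2% ± 0.696 to 3.90% ± 1.02 in LIP. Summed over the 10 genes, the level was 1235 ± 25.3 CPM in CTL and 1297 ± 24.0 CPM in LIP on day 0, and 2306 ± 402 CPM in CTL and 3257 ± 526 CPM in LIP on day 2 (SD, n = 3 in each). The lowest LIP library on day 2 (2918 CPM) lay above the highest CTL library (2770 CPM).

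**Figure D1:**
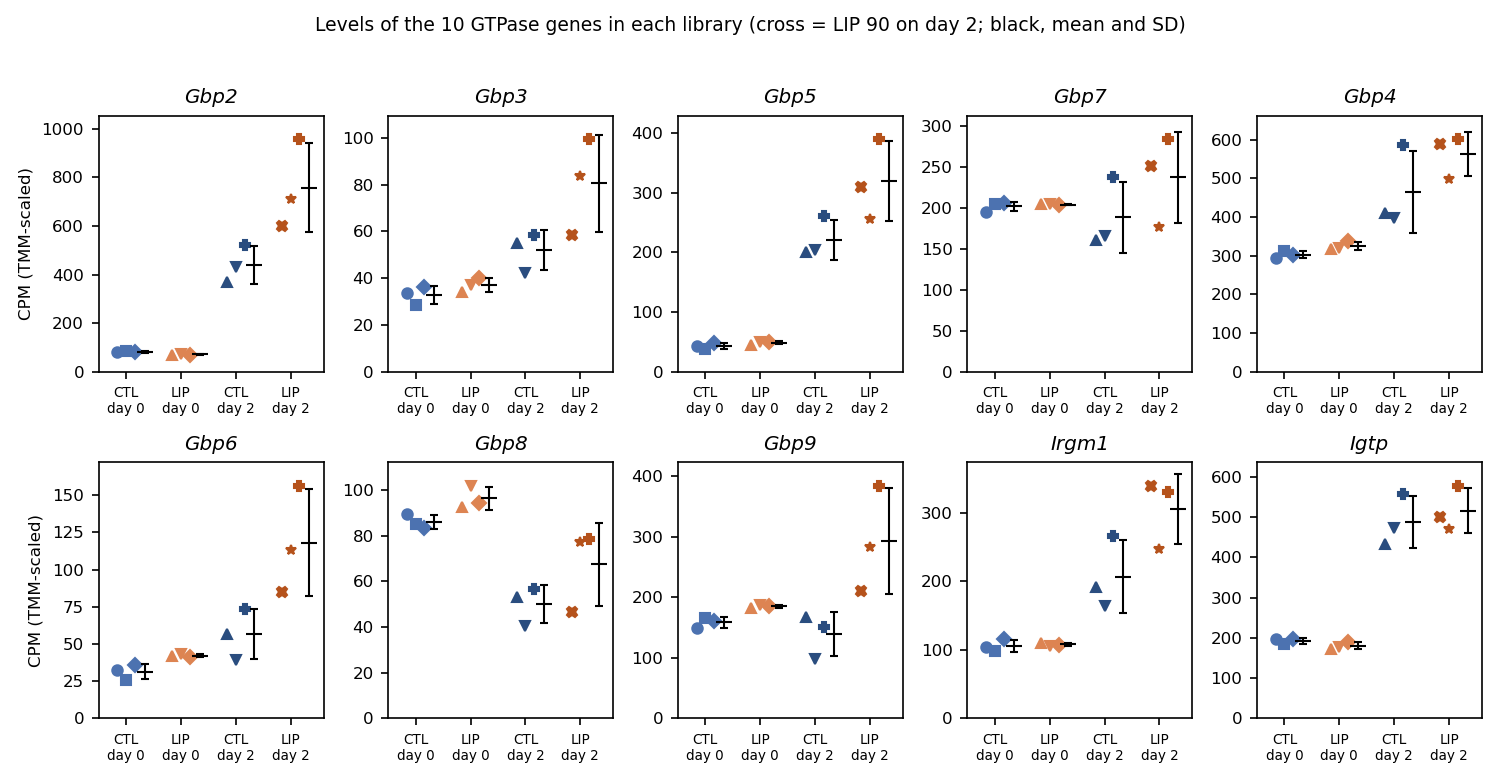
CPM (linear axis from 0, TMM-scaled over 12 libraries) of each member in the 3 libraries of the 4 groups, with points from left to right in the order of the library number and the mean and SD in black; the diagonal cross marks LIP 90 and the plus signs the libraries numbered 97. Gbp2 and Gbp5 are far higher on day 2 than on day 0, Gbp8 is lower, and Gbp7 overlaps between the days.

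Culture with T cell receptor stimulation changed most of the family in both groups. In CTL, 7 members rose from day 0 to day 2 and 1 fell, and in LIP 8 rose and 1 fell (edgeR's quasi-likelihood test on the 4 groups, Benjamini-Hochberg adjusted p under 0.05). Most genes of these cells changed as well: 35.3% of 15475 genes tested rose and 33.7% fell in CTL, and 36.6% rose and 35.2% fell in LIP. The members' median log2 fold change was 0.76 in CTL and 1.3 in LIP, compared with medians of -0.02 and -0.00 over all genes tested.

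Gbp2, which coats pathogen vacuoles, had the largest increase. It measured 79.4, 83.9 and 80.4 CPM in the fresh CTL libraries 88, 89 and 94, and 369, 429 and 522 CPM in the cultured CTL libraries 92, 93 and 97, a 5.42-fold rise (log2 fold change 2.44 ± 0.16 SE, adjusted p = 2.67e-08). In LIP it went from 70.0, 72.9 and 70.3 CPM in libraries 92, 93 and 94 to 600.5, 712 and 958 CPM in libraries 90, 96 and 97, a 10.6-fold rise (3.41 ± 0.17, adjusted p = 1.89e-09). Neither pair of groups overlapped. Gbp5, which promotes inflammasome assembly, rose 5.19-fold in CTL, from 42.3, 38.2 and 47.4 CPM to 200.0, 204 and 260.3 CPM (log2 fold change 2.38 ± 0.16, adjusted p = 2.46e-08). In LIP it rose 6.57-fold, from 45.2, 50.2 and 50.2 CPM to 310.2, 257 and 390.2 CPM (2.72 ± 0.16, adjusted p = 6.99e-09).

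Both regulatory IRGs rose as well. Igtp increased 2.54-fold in CTL and 2.87-fold in LIP (log2 fold changes 1.34 ± 0.11 and 1.52 ± 0.11), and Irgm1 1.96-fold and 2.83-fold (0.97 ± 0.16 and 1.50 ± 0.17). The rises of Gbp3 (0.66 ± 0.18 in CTL and 1.12 ± 0.18 in LIP), Gbp4 (0.62 ± 0.14 and 0.79 ± 0.14) and Gbp6 (0.85 ± 0.23 and 1.49 ± 0.23) were smaller. Summed with Gbp10 and Gm43302, an alternative chosen after seeing the data, the Gbp6 counts rose by log2 fold changes of 1.21 ± 0.23 in CTL and 2.02 ± 0.23 in LIP.

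Gbp8, Gbp9 and Gbp7 behaved differently from these. Gbp8 measured 89.6, 85.2 and 83.4 CPM in fresh and 53.2, 40.5 and 56.6 CPM in cultured CTL cells, and 92.7, 102 and 94.6 CPM against 46.4, 77.5 and 78.6 CPM in LIP. The day 0 libraries were all higher than the day 2 libraries, and Gbp8 fell by 0.78 on the log2 scale in CTL (SE 0.18, adjusted p = 0.00131) and by 0.52 in LIP (SE 0.17, adjusted p = 0.0159). The fall in LIP no longer passed the test without LIP 93 of day 0 (adjusted p = 0.0650), and Gbp8 gave -0.30 without LIP 90 (adjusted p = 0.0383). Gbp9 rose in LIP (log2 fold change 0.66 ± 0.20, adjusted p = 0.00943) and gave -0.19 ± 0.20 in CTL (adjusted p = 0.412). Without LIP 97 of day 2 the rise of Gbp9 had an adjusted p of 0.0570. Gbp7 gave -0.10 ± 0.17 in CTL and 0.22 ± 0.17 in LIP, with adjusted p of 0.607 and 0.251, and passed the test in LIP without LIP 96 (0.40 ± 0.14, adjusted p = 0.0250). The scaling mattered here: with upper-quartile factors the median of all genes moved to -0.31 in CTL and -0.32 in LIP, and 6 members rose and 2 fell in CTL (Gbp3 was lost and Gbp7 called lower), while in LIP 7 rose and 1 fell. The rise lost in LIP was that of Gbp9, which gave 0.35 with these factors (adjusted p = 0.145) and 0.30 with library totals alone (adjusted p = 0.202). With these factors Gbp4 gave 0.33 and Gbp6 0.56 in CTL, and Gbp4 gave 0.47 and Gbp8 -0.83 in LIP.

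**Figure D2:**
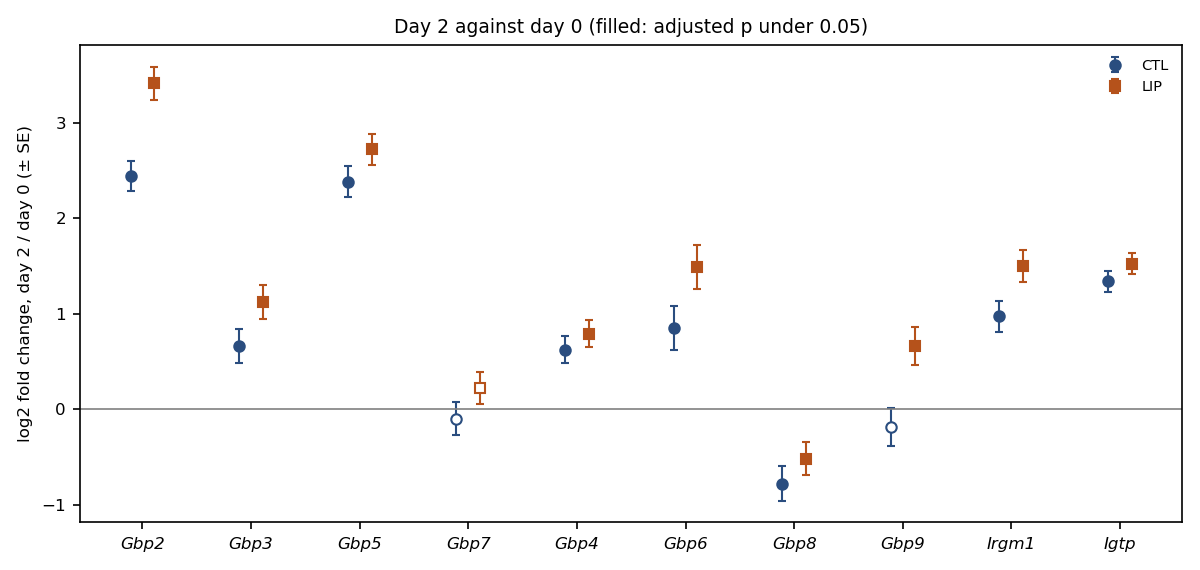
Log2 fold change of day 2 over day 0 (± SE) of the 10 members in CTL (circles) and LIP (squares), from 3 libraries a group, with filled symbols for an adjusted p under 0.05. The LIP value lies above the CTL value for each gene, by 0.98 for Gbp2 and 0.17 for Gbp4, and Gbp8 lies below 0 in both groups.

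In fresh cells LIP and CTL differed little in these genes. No member passed the adjusted threshold on day 0 in edgeR's quasi-likelihood test, in which 60 of 14064 genes (0.427%) passed, or in DESeq2, in which 1.46% did. Without the filter on low counts Gbp6 passed (0.44, adjusted p = 0.00842), with 2.52% of all genes. At an unadjusted p under 0.05, Gbp6, Gbp8 and Gbp9 were higher in LIP and Gbp2 was lower, against 6.67% of all genes higher and 7.20% lower (13.9% in all), and DESeq2 gave 2 members, with 9.31% of all genes. The median log2 fold change of the members was 0.14, and that of all genes 0.01. The groups did not overlap for Gbp4, Gbp6, Gbp8 and Gbp9, the 4 members on chromosome 5, all higher in LIP, and for Gbp2, lower in LIP, compared with 9.26% of all genes higher and 9.85% lower without overlap. Of the activation genes, Cd69 was lower in LIP on day 0 (-0.90 ± 0.16, adjusted p = 0.0375) and Il2ra gave 0.34 ± 0.08 (adjusted p = 0.112), and their part in the members' values was not tested.

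Gbp6 measured 32.4, 25.8 and 36.0 CPM in CTL 88, 89 and 94 and 41.6, 43.3 and 41.3 CPM in LIP 92, 93 and 94 (log2 fold change 0.43 ± 0.12, adjusted p = 0.152). Gbp9 measured 149, 166 and 161 CPM in CTL and 182, 188 and 186 CPM in LIP (0.23 ± 0.07, adjusted p = 0.172). For Gbp8 the difference was 0.17 ± 0.07 (adjusted p = 0.327). The LIP values of these genes were close together, within 41.3 to 43.3 CPM for Gbp6. Gbp2 was the exception in direction, with every LIP library (70.0 to 72.9 CPM) below every CTL library (79.4 to 83.9 CPM) and a log2 fold change of -0.19 ± 0.07 (adjusted p = 0.266). The other members lay between -0.09 (Igtp) and 0.19 (Gbp5). Without CTL 94, Gbp6 passed the test (0.54 ± 0.12, adjusted p = 0.0178), as 4.59% of all genes then did, and without LIP 94 the members with an unadjusted p under 0.05 went from 4 to 2, and the share of all genes from 13.9% to 9.27%. Summed with Gbp10 and Gm43302, Gbp6 gave 0.34 ± 0.08 (adjusted p = 0.100).

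After culture all 10 members had a higher mean in LIP than in CTL, but no member passed the adjusted threshold in edgeR's test on the 6 libraries of that day, and no other gene did (0% of 14041 genes tested). With 12 libraries in one fit, 3 members passed (Gbp2, Gbp6 and Gbp9), with 5.01% of all genes, and without the filter on low counts 4 did (these and Gbp3), with 2.57%. The log2 fold changes ran from 0.07 (Igtp) to 1.07 (Gbp9), with a median of 0.53, while the median of all genes was -0.01 and 49.2% of genes lay above 0. At an unadjusted p under 0.05, 6 members were higher (Gbp2, Gbp3, Gbp5, Gbp6, Gbp9 and Irgm1), against 8.33% of all genes, and DESeq2 called Gbp2, Gbp6 and Gbp9 at an adjusted p under 0.05, with 3.48% of all genes. The groups did not overlap for Gbp2, Gbp3, Gbp6 and Gbp9, all higher in LIP, against 10.9% of all genes. Scaled by library totals alone, with which 4.84% of genes were higher out of 17.5% with an unadjusted p under 0.05, Igtp turned to -0.01, and the other 9 members stayed above 0.

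Gbp9 had the largest difference, from 168, 98.3 and 151 CPM in CTL 92, 93 and 97 to 210.2, 283 and 385 CPM in LIP 90, 96 and 97, a 2.09-fold higher mean level (log2 fold change 1.07 ± 0.26, adjusted p = 0.140). Gbp6 went from 56.9, 39.4 and 73.4 CPM to 84.9, 113 and 157 CPM (1.05 ± 0.27, adjusted p = 0.150), and the sum of its near-identical copies gave 1.13 ± 0.29 (adjusted p = 0.141). Gbp2 measured 369, 429 and 522 CPM in CTL and 600.5, 712 and 958 CPM in LIP (0.77 ± 0.21, adjusted p = 0.150). In each of these genes the lowest LIP library, LIP 90, was nearer to CTL than LIP 96 and LIP 97 were. Gbp3 had the same pattern, with 55.0, 42.4 and 58.5 CPM in CTL and 58.6, 83.5 and 99.5 CPM in LIP (0.62 ± 0.21, adjusted p = 0.213), so that LIP 90 was just above the highest CTL library.

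The remaining members overlapped between the groups. Irgm1 measured 191, 164 and 267 CPM in CTL and 340.1, 247 and 331 CPM in LIP (0.55 ± 0.20, adjusted p = 0.233), with LIP 96 below CTL 97. Gbp5 gave 0.52 ± 0.18 (adjusted p = 0.222) and Gbp8 0.42 ± 0.22 (adjusted p = 0.383). Gbp7 (0.32 ± 0.21) and Gbp4 (0.27 ± 0.18) had adjusted p of 0.483 and 0.476, and Igtp, the gene with the highest level per length in fresh cells, differed least (0.07 ± 0.15, adjusted p = 0.838). In this comparison the members on chromosome 3 had a median of 0.57, those on chromosome 5 of 0.74 and those on chromosome 11 of 0.31.

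Without LIP 90, 5 members passed the adjusted threshold on day 2, all higher in LIP, when 13.9% of 14453 genes passed it and 7.74% did so as higher. These were Gbp9 (1.28 ± 0.21, adjusted p = 0.00527), Gbp6 (1.27 ± 0.23, adjusted p = 0.00751), Gbp2 (0.94 ± 0.17, adjusted p = 0.00774), Gbp3 (0.83 ± 0.15, adjusted p = 0.00863) and Gbp8 (0.66 ± 0.15, adjusted p = 0.0192). They are the 5 members for which LIP 90 was the lowest of the LIP libraries, and LIP 96 was the lowest for the other 5. Irgm1 (0.50), Gbp5 (0.57), Gbp7 (0.31), Gbp4 (0.26) and Igtp (0.12) changed little by the omission. The number with an unadjusted p under 0.05 went from 6 to 3 without CTL 93 or without LIP 97, when the share of all genes at this threshold went from 16.5% to 8.71% and 11.7%.

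Library 97 was the highest of its group for 9 of the 10 members in CTL and again for 9 of the 10 in LIP on day 2, the exceptions being Gbp9 in CTL and Irgm1 in LIP. Over all genes tested on day 2, CTL 97 was the highest of its group for 39.1% and LIP 97 for 25.7%. On day 0 no library was the highest for more than 5 members. The members' levels were correlated (median r of 0.61 with group means subtracted), so the 10 genes are not separate observations. Both libraries carry the label that names anti-CD30, an antibody the study's methods do not name. Over all genes the deviations of CTL 97 and LIP 97 from their group means had an r of -0.04. Whether the label bears on these levels was not tested.

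**Figure D3:**
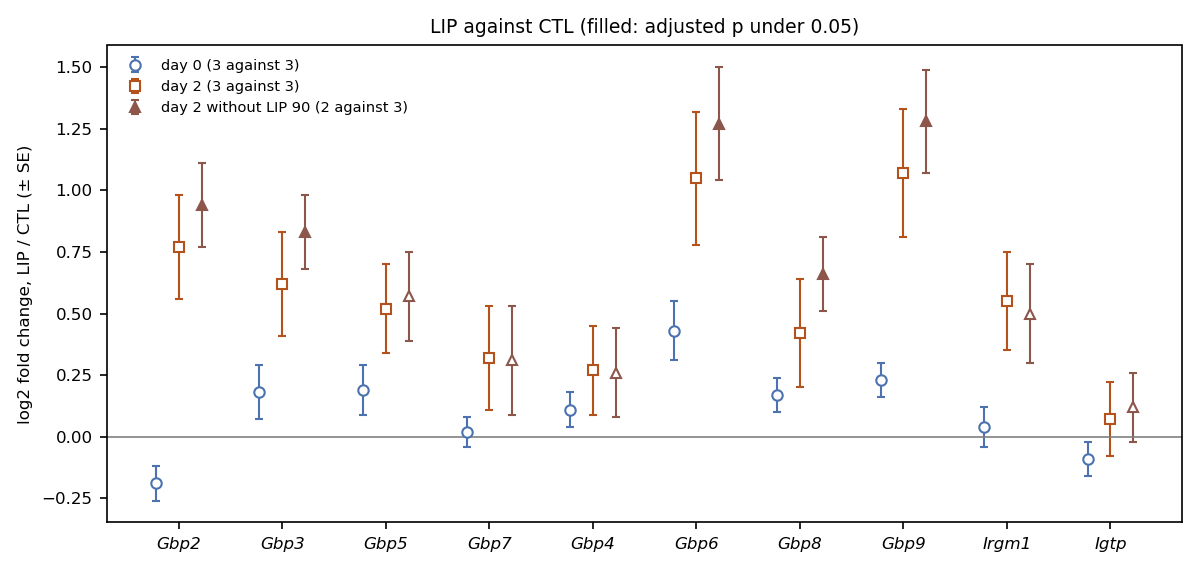
Log2 fold change of LIP over CTL (± SE) of the 10 members on day 0 (circles), on day 2 (squares) and on day 2 without LIP 90 (triangles), with filled symbols for an adjusted p under 0.05. The day 2 values of the 10 genes lie above 0, from 0.07 to 1.07, and 5 are filled only with LIP 90 left out.

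Whether culture changed the members more in LIP than in CTL was tested as the difference between the groups in their day 2 against day 0 change. All 10 differences were above 0, as for 49.9% of all genes, with a median of 0.40 against -0.00 over all genes. With library totals alone, which moved the median of all genes to -0.17, that of Gbp4 was 0.00. Of the members 0 passed the adjusted threshold in edgeR's test, against 0.0517% of 15475 genes. DESeq2 called Gbp2, with 3.43% of all genes. At an unadjusted p under 0.05 there were 3 members, Gbp2, Gbp9 and Irgm1, against 8.65% of all genes that were above 0 at this threshold. This comparison shares its libraries with those above and is no separate evidence. Gbp2, which was lower in LIP on day 0 and higher on day 2, had the largest difference (0.98 ± 0.22, adjusted p = 0.0871), followed by Gbp9 (0.85 ± 0.28, adjusted p = 0.170), Gbp6 (0.64 ± 0.33, adjusted p = 0.366) and Irgm1 (0.53 ± 0.23, adjusted p = 0.276). Summed with Gbp10, Gbp6 gave 0.92 ± 0.32 (adjusted p = 0.186), and with Gm43302 as well 0.81 ± 0.32 (adjusted p = 0.227), so that 4 members had an unadjusted p under 0.05. Without LIP 90, Gbp2 (1.12 ± 0.19, adjusted p = 0.00224) and Gbp9 (1.04 ± 0.23, adjusted p = 0.0125) passed, along with 10.1% of all genes. At the unadjusted threshold, 7 members passed without CTL 97 of day 2 and 5 without LIP 90 or without LIP 96, with 17.2%, 24.2% and 13% of all genes, against 15.9% with all 12 libraries.

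The other genes of both families were read from a list of 10 (Gbp2b, Gbp10, Gbp11, Irgm2, Iigp1, Ifi47, Tgtp1, Tgtp2, Gm12250 and Irgq), all of which were tested. On day 0 only Iigp1, an effector IRG, passed the test, with 63.7, 54.2 and 64.6 CPM in CTL against 89.4, 85.7 and 89.5 CPM in LIP (0.54 higher on the log2 scale, adjusted p = 0.0199). That call was lost without any 1 of the 3 LIP libraries, without CTL 88 (adjusted p = 0.0779) and in the fit of all 12 libraries (adjusted p = 0.633). On day 2 Iigp1 did not differ by more than the spread (0.05 ± 0.27). Gbp11 and Gbp10, neighbours of Gbp6 on chromosome 5, had the largest differences of the list on day 2. Gbp11 measured 2.96, 2.03 and 7.72 CPM in CTL and 14.8, 19.0 and 20.5 CPM in LIP (2.08 ± 0.41, adjusted p = 0.118), and Gbp10 110.3, 56.7 and 113 CPM against 172, 218 and 310.3 CPM (1.31 ± 0.30, adjusted p = 0.130). Without LIP 90 both passed, with adjusted p of 0.00741 for Gbp11 and 0.00642 for Gbp10. At an unadjusted p under 0.05, 4 of the 10 were higher and 1 was lower on day 2, with a median of 0.28, against 8.33% of all genes higher and 8.20% lower.

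Gbp2b, the neighbour of Gbp2 on chromosome 3, had the largest rise of either family between the days. It went from 71.7, 72.2 and 66.0 CPM to 852, 1031 and 1296 CPM in CTL (3.92 on the log2 scale, adjusted p = 2.57e-09) and from 51.9, 56.7 and 66.7 CPM to 1410, 1265 and 2034 CPM in LIP (4.75, adjusted p = 8.75e-10). Iigp1, Gbp10, Tgtp1 and Gm12250 also rose in both groups, by 2.48, 1.64, 0.98 and 0.70 in CTL and by 2.00, 2.78, 0.68 and 1.09 in LIP, though Tgtp1 did not pass in LIP with library totals alone (adjusted p = 0.0628). Irgm2 rose in LIP (0.80) and had an adjusted p of 0.0527 in CTL. Gbp11 fell in CTL (-1.17, adjusted p = 0.00842, and -1.92 without CTL 97) and gave 0.52 in LIP (adjusted p = 0.141, and 0.0263 with 6 libraries in the fit), and the difference of these changes was 1.69 ± 0.46 (adjusted p = 0.113). Irgq, an atypical IRG, fell in both groups, by 0.39 and 0.78 on the log2 scale, and the fall in CTL was lost without CTL 94 of day 0 (adjusted p = 0.0952), CTL 93 (0.100) or CTL 97 (0.0642) of day 2, and without the filter on low counts (0.0790). Ifi47 and Tgtp2 did not pass in either group.

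The interferon pathway that induces these GTPases was read from further lists. Ifng, the gene for interferon-γ, had 2.17 to 5.27 CPM on day 0. It rose in culture to 40.6, 28.9 and 16.1 CPM in CTL (3.15 on the log2 scale, adjusted p = 3.28e-05) and to 21.3, 11.5 and 7.00 CPM in LIP (2.11, adjusted p = 0.00108). On day 2 its difference between LIP and CTL was opposite in sign to that of the members (-1.10 ± 0.42, adjusted p = 0.248), and it passed without LIP 90 (-1.59 ± 0.37, adjusted p = 0.0209). Ifnar2, a chain of the type I receptor, gave 0.42 ± 0.18 on day 2 (adjusted p = 0.292) and passed without LIP 90 (0.61 ± 0.13, adjusted p = 0.0133). Ifnb1 had 0 counts in the 12 libraries, which allows up to 0.269 to 0.452 CPM. The receptor chain Ifngr1 fell in culture in both groups (-1.75 in CTL and -1.25 in LIP), and Ifngr2 did not pass in either (-0.20 and 0.11), but was called lower in CTL with upper-quartile factors (-0.48, adjusted p = 0.0147) and library totals alone (-0.39, adjusted p = 0.0370). Of the type I receptor genes, Ifnar1 fell in CTL and LIP (-0.60 and -0.46) and Ifnar2 in CTL (-0.48), the latter not without CTL 88 (adjusted p = 0.0518).

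Among the signalling genes, Stat2 and Irf9, which form the complex that binds ISREs, and Irf7 differed most on day 2. Stat2 measured 125, 73.4 and 83.4 CPM in CTL and 198, 192 and 287 CPM in LIP (1.26 ± 0.24, adjusted p = 0.108). Irf7, itself an interferon-induced factor, measured 23.4, 6.69 and 11.4 CPM against 47.0, 72.4 and 149 CPM (2.68 ± 0.52, adjusted p = 0.118). In both genes every LIP library lay above every CTL library. Irf9 gave 0.81 ± 0.25 (adjusted p = 0.191). Irf1, which follows interferon-γ, gave 0.12 ± 0.16 (adjusted p = 0.760). Without LIP 90, Irf7 (adjusted p = 0.00249), Irf9 (0.00311) and Stat2 (0.00555) passed, and Irf1 did not (adjusted p = 0.378). On day 0 the signalling genes lay between -0.32 (Irf2) and 0.30 (Irf7), none past the adjusted threshold. In culture Jak2 and Irf8 rose in both groups (2.63 and 3.64 in CTL, 2.56 and 2.88 in LIP) and Jak1 and Tyk2 fell, while Stat2 rose by 0.83 in CTL and by 2.00 in LIP. Irf7 and Irf9 fell in CTL (-1.61 and -0.66, the latter with an adjusted p of 0.0531 without CTL 93) and did not pass in LIP (0.78 and 0.06), and Irf1 rose in LIP (0.51). In LIP, Irf7 gave 1.09 without LIP 90 (adjusted p = 0.00735) and 0.21 without LIP 97 (adjusted p = 0.573), and passed without the filter on low counts (0.83, adjusted p = 6.16e-05). In CTL, Irf1 gave 0.25 (adjusted p = 0.102) and passed without CTL 92 (0.36, adjusted p = 0.0272). Irf2 fell in CTL (-0.29, adjusted p = 0.0486), which was lost without CTL 88, 89 or 94 of day 0, without CTL 92 or 97 of day 2 and without the filter on low counts. The rise of Irf1 in LIP was lost with upper-quartile factors or library totals alone.

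Of 9 genes known mainly as type I interferon markers, 7 passed the filter on low counts on day 2, and all 7 had an unadjusted p under 0.05, with log2 fold changes from 1.76 (Ifit3) to 4.46 (Ifi44) and a median of 3.40. The 2 that did not pass, Rsad2 and Oasl2, had at most 5.31 CPM in any library. A gene that passes the filter through the LIP libraries alone is bound to differ, so this count, these values and their median are descriptions. Isg15, a ubiquitin-like modifier, measured 3.59, 1.31 and 2.38 CPM in CTL and 21.7, 26.2 and 55.6 CPM in LIP (3.79 ± 0.46, adjusted p = 0.0568). Usp18, which removes Isg15 from proteins and dampens type I interferon signalling, measured 15.3, 7.76 and 8.63 CPM against 54.4, 57.9 and 135 CPM (2.94 ± 0.42, adjusted p = 0.0894). Without LIP 90, Isg15 (4.05, adjusted p = 2.85e-04), Usp18 (3.19, adjusted p = 8.39e-04) and Ifi44 (4.79, adjusted p = 0.00251) passed. Ifi44 had 0.597 to 10.0 CPM in CTL and Isg15 at most 3.59, so the calls of these 2 type I markers are descriptions too. Of 8 genes tested that are induced mainly by interferon-γ, 4 had an unadjusted p under 0.05 (Tap1, Psmb8, Psmb9 and Psmb10, of antigen processing), with values from 0.37 to 0.56 and a list median of 0.38, against 8.33% of all genes higher and 8.20% lower. Among the inhibitors, Ptpn2, a phosphatase that dampens cytokine signalling, gave 0.48 (adjusted p = 0.131) and Socs1 0.12 (adjusted p = 0.689). Without LIP 90, Ptpn2 (0.54, adjusted p = 0.0108) and Tap1 (0.70, adjusted p = 0.0133) passed. In culture 5 of the 8 interferon-γ targets rose and 2 fell in each group, where 35.3% of all genes rose and 33.7% fell in CTL and 36.6% rose and 35.2% fell in LIP. Cd274 (2.40 in CTL and 2.20 in LIP), Psmb9 (1.37 and 1.56), Tap1 (0.91 and 1.33), Psmb8 (0.69 and 1.1) and B2m (0.39 and 1.09) rose in both, and Psmb10 fell in both (-1.20 and -0.56). Nlrc5 fell in CTL (-0.43, adjusted p = 0.0216), which was lost without CTL 88, CTL 89 or CTL 93 (adjusted p = 0.0726, 0.0799 and 0.103), and Ciita in LIP (-1.17, adjusted p = 0.0211), lost without LIP 93 of day 0 or LIP 96 (adjusted p = 0.105 and 0.0682). The rise of B2m in CTL was lost with the other scalings (0.11 with upper-quartile factors) and without CTL 88, CTL 94 or CTL 93 (adjusted p = 0.102, 0.0858 and 0.164). Of 8 type I markers tested between the days, 0 rose and 4 fell in CTL, and 3 rose and 1 fell in LIP, beside the same shares of all genes. In CTL on day 2 the 4 that fell there were near the floor. Rtp4 had 0.119 to 0.951 CPM, Ifit3 0.717 to 1.02, Oas1a 0.478 to 2.11 and Ifit1 1.07 to 2.84. Such genes can pass the filter through the groups where they are higher, so the counts and values of this list between days are descriptions. Isg15 (4.58), Ifi44 (3.92) and Mx1 (2.34) rose in LIP, Rtp4 fell in both (-4.21 in CTL and -1.38 in LIP, where it gave -2.14 without LIP 97), and Ifit1 fell in CTL (-2.07). The fall of Ifit3 in CTL (-1.65) was lost without any 1 of the CTL libraries except CTL 94 of day 0 (adjusted p from 0.0508 without CTL 97 to 0.0926 without CTL 88). That of Oas1a (-1.84) was lost without CTL 94 of day 0 (adjusted p = 0.0972) or without CTL 93 (0.0884) or CTL 97 (0.0850) of day 2. Socs1 (1.55 and 1.44) and Ptpn2 (0.71 and 1.17) also rose in both groups, Pias1 fell in both (-1.0 and -0.92), and Usp18 rose in LIP (3.23).

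**Figure D4:**
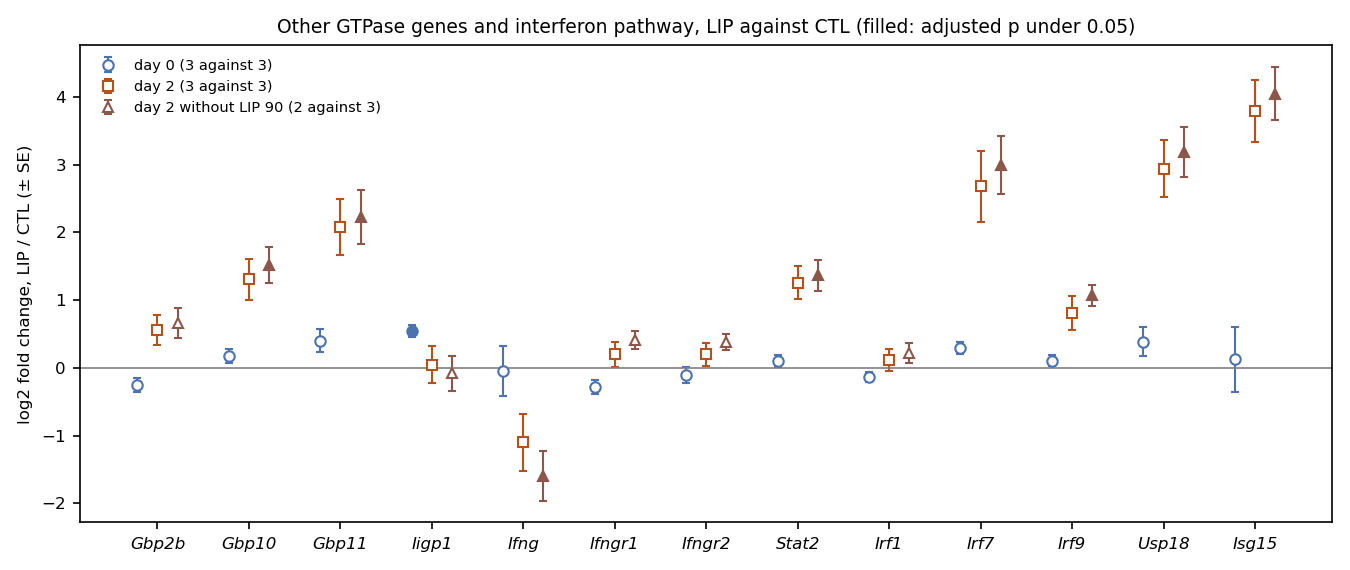
Log2 fold change of LIP over CTL (± SE) of other GTPase genes and of genes of the interferon pathway on day 0 (circles), on day 2 (squares) and on day 2 without LIP 90 (triangles), with filled symbols for an adjusted p under 0.05. Of the genes shown, which leave out Ifi44, Isg15, Usp18, Irf7 and Gbp11 have the highest values on day 2. Ifng lies below 0 on day 2, and Iigp1 is filled on day 0 alone.

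The proteins that bring GBPs and IRGs to vacuoles were read from 10 genes of the autophagy conjugation machinery and its partners. On day 2 Rnf213, a ubiquitin ligase that attacks intracellular pathogens, measured 293, 197 and 188 CPM in CTL and 459, 398 and 750.1 CPM in LIP (1.24 on the log2 scale, adjusted p = 0.124), without overlap. Sqstm1, an autophagy receptor, gave 0.94 (adjusted p = 0.205), with 0.56 without LIP 96 (adjusted p = 0.518), and the list median was 0.03. Without LIP 90, Rnf213 (1.36, adjusted p = 0.0105) and Sqstm1 (1.27, adjusted p = 0.00122) passed. The list genes given above as passing on day 2 without LIP 90 also passed with 12 libraries in one fit, except Ifng and Ifnar2. In culture 2 of the 10 rose and 4 fell in CTL, and 2 rose and 3 fell in LIP, against 35.3% of all genes rising and 33.7% falling in CTL and 36.6% and 35.2% in LIP. Atg16l1 and Map1lc3b fell in both groups (-0.55 and -0.94 in CTL, -0.78 and -0.47 in LIP), and Arhgdia rose in both (0.50 and 0.73, in CTL with an adjusted p of 0.164 with upper-quartile factors and 0.0584 with library totals alone). Atg12 and Rnf213 fell in CTL (-1.14 and -1.21), and Sqstm1 rose in LIP (0.97, and 0.57 without LIP 96). The rise of Gabarapl2 in CTL (0.31) was lost without CTL 89, CTL 92 or CTL 97 (adjusted p = 0.195, 0.0884 and 0.0891), and under each alternative of scaling, tool or libraries in the fit, with 0.02 by upper-quartile factors (adjusted p = 0.879). The fall of Atg7 in LIP (-0.25) was lost without each LIP library except LIP 96, without the filter on low counts (adjusted p = 0.284), with DESeq2 (0.0916) and with 6 libraries in the fit (0.0515).

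On day 0 no gene of the pathway lists passed the adjusted threshold in edgeR's test. The largest values of each list with an unadjusted p under 0.05 were those of Mx1 (1.27 ± 0.49) and Ifi44 (0.70 ± 0.31) among the type I markers, Map1lc3b (-0.44 ± 0.13) among the vacuole genes, and B2m (-0.35 ± 0.10) and Nlrc5 (0.20 ± 0.08) among the interferon-γ targets. Mx1 had 3 to 13 counts in the CTL libraries and 12 to 22 in LIP, close to the filter on low counts, so its value is a description. Ifngr1 gave -0.28 ± 0.10 and Socs3, an inhibitor, 0.23 ± 0.10, and of the other GTPases Gbp11 gave 0.40 ± 0.17. Without CTL 94, Irf2 (-0.36, adjusted p = 0.0199) and Map1lc3b (-0.61, adjusted p = 0.00105) passed, and both passed with DESeq2, as did B2m (adjusted p = 0.0225). Ifng (-0.04), Ifngr2 (-0.10), Stat2 (0.10), Irf9 (0.11) and Irf1 (-0.13) had adjusted p from 0.417 to 0.978.

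For the difference between the groups in their change, which shares its libraries with the comparisons above, no list gene passed the adjusted threshold with all 12 libraries. Up to 2 genes are named for each list, by size among those with an unadjusted p under 0.05. Ifi44 gave 3.76 ± 1.01, Isg15 3.67 ± 0.79 and Usp18 2.56 ± 0.53, where the values of Ifi44 and Isg15 are descriptions, as on day 2. Irf7 (2.39 ± 0.56), Stat2 (1.17 ± 0.27), Gbp10 (1.14 ± 0.34), Sqstm1 (1.13 ± 0.35, and 0.72 without LIP 96) and Rnf213 (1.11 ± 0.30) followed, and the adjusted p of these 8 genes ran from 0.0832 to 0.142. They passed without LIP 90 and with DESeq2. B2m (0.70 ± 0.23), Psmb10 (0.63 ± 0.20), Ifngr1 (0.49 ± 0.23) and Ptpn2 (0.46 ± 0.14) were smaller, and of these Psmb10 did not pass without LIP 90. Irf9 gave 0.72 ± 0.28, Ifngr2 0.31 ± 0.22, Irf1 0.27 ± 0.18 and Ifng -1.05 ± 0.67, and of these only Irf9 passed without LIP 90 (0.96, adjusted p = 0.00429). On day 2 itself Ifngr1 and Ifngr2 each gave 0.20 (adjusted p = 0.637 and 0.591).

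Markers of other cells moved with some of these results. A set of 6 NK cell genes, all found and none at 0 in every library of a group, summed to 63.7 to 71.9 CPM in CTL and 52.8 to 58.4 CPM in LIP on day 0, and to 8.48 to 12.3 CPM in CTL and 21.0 to 35.9 CPM in LIP on day 2. The groups did not overlap on either day, with LIP lower on day 0 and higher on day 2. On day 0 Prf1, which encodes perforin, gave -0.66 ± 0.13 (adjusted p = 0.0640), from a mean of 45.9 CPM in CTL to 28.9 CPM in LIP. The means of the other NK genes were all higher in LIP. Ncr1 had 2.06 CPM in CTL and 3.65 in LIP, Klrb1c 2.08 and 3.46, and Klre1 0.172 and 0.499. Klrk1 had 12.4 and 13.3 CPM, and Eomes 4.58 and 5.18. The lower sum of LIP on day 0 was thus that of Prf1 alone. Of the 6 NK genes, Klrk1 (1.91) and Eomes (0.91), which activated T cells can also express, had an unadjusted p under 0.05 on day 2, and Ncr1, Klrb1c and Klre1 had too few counts to be tested. Of the 6 B cell genes, whose sum was 96.7 to 127 CPM on day 0, the sum on day 2 was 20.8 to 61.3 CPM in CTL and 21.7 to 67.7 CPM in LIP. The part of these cells in the levels of the GTPases was not tested.

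Across the 12 libraries the members' log2 CPM were correlated with a median Pearson's r of 0.69 over 45 pairs (range -0.76 to 0.99), and with group means subtracted the median was 0.61 (0.03 to 0.93). These libraries share groups, scaling and depth, so the values are descriptions. Of 15378 genes outside the lists, those most like the members' mean standardised level over the 12 libraries were Zbp1, a sensor of Z-form nucleic acids (r = 0.97), Caml (0.97), Mpeg1, which encodes perforin-2 (0.96), Tollip (0.96) and Gm43302, the copy of Gbp6 (0.96). With group means subtracted they were Gm49883 (0.93), Cd164 (0.93), Ifi203 (0.92), Slfn3 (0.92) and Srd5a3 (0.91).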

How the data were processed

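Libraries were made by the authors with rRNA depletion and a directional kit and read as paired ends. Per the labels and methods, reads were checked with FastQC 0.11.9, trimmed with Trimmomatic (0.38 in the submitters' processing notes), aligned with HISAT2 to GRCm39 and counted with RSEM 1.3.0 and Bowtie2. The deposited table holds expected counts per gene without normalization. A signal proportional to the counts of each library was deposited in separate tables, which also hold the authors' log2 fold changes and p-values. These tables were used only to look up gene names and to check the counts. Of the signal columns, 2 matched no labelled sample and were not used. Libraries were grouped by title.

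Expected counts were rounded and tested with edgeR 4.0.16 in R 4.3.3 (filterByExpr, TMM, quasi-likelihood test, Benjamini-Hochberg over all genes tested): LIP against CTL within each day on its 6 libraries, and the changes between days and their difference on all 12. Levels are CPM on TMM-scaled totals over the 12 libraries, and depth (6249094 to 12866751) sets their precision. DESeq2 1.42.0, other scalings, no filter, another set of libraries in the fit, each library left out, a block by antibody label and summed copies of Gbp6 were tried as alternatives. Scripts were tested on simulated data. All 10 members are named, Stat2, Irf1, Irf9, Ifng, Ifngr1 and Ifngr2 throughout, list genes where they pass the test, or otherwise up to 2 a list by size among those with an unadjusted p under 0.05, and the 5 most alike genes. Values of other list genes were chosen after they were seen, and 1 listed gene is not reported here. The members and lists were chosen with earlier results of these data known.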

Additional observations from a re-analysis of the deposited data

How the results depend on the processing

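No paired analysis was possible because the compared groups share at most 1 library number, 94 on day 0 and 97 on day 2. The antibody names in the day 2 labels were used instead as a replicate block over 3 pairs, chosen after seeing the data: libraries of a pair did not deviate together (r of -0.11 to -0.04 across genes), and 0 members passed the adjusted and 6 the unadjusted threshold, with 13.1% of all genes, so no call of a member changed. With 0 members past the adjusted threshold on day 0, 1 passed without a filter on low counts, and leaving out 1 library each gave 0 to 1. On day 2, also 0, there were 4 without the filter, 3 with DESeq2 and 3 with 12 libraries in one fit, and 0 to 5 with 1 library left out. For the difference between LIP and CTL in the change, 2 passed without the filter, 1 with DESeq2, and 0 to 2 with 1 library left out. At an unadjusted p under 0.05, the 4 members of day 0 became 2 with DESeq2 (9.31% of all genes), 0 with 12 libraries in one fit (7.32%), and 2 to 5 with 1 library left out (8.85% to 21.1%), the 6 of day 2 became 3 to 8 (8.71% to 29.8%), and the 3 of the difference became 5 without the filter (11.0%) and 2 to 7 (12.1% to 24.2%). The number of members called between days was 8 of 10 in CTL under each alternative run (40.2% to 71.6% of all genes), as 6 higher and 2 lower with upper-quartile factors and 7 and 1 otherwise, and 8 to 10 in LIP (41.9% to 73.8%). Over all genes, the calls went from 60 to 645 without the filter, 206 with DESeq2 and 12 with 12 libraries in one fit on day 0, from 0 to 662, 489 and 775 on day 2, and for the difference from 8 to 815 without the filter, 531 with DESeq2 and 97 with library totals alone.

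Library totals alone raised the share of genes higher at an unadjusted p under 0.05 to 12.1% of 15.9% on day 0, and lowered it to 4.84% of 17.5% on day 2, to 3.87% of 18.9% for the difference, and to 30.6% of 72.7% and 27.4% of 75.7% between days in CTL and LIP (upper-quartile factors 28.3% of 73.8% and 28.6% of 75.4%), against 6.67% of 13.9%, 8.33% of 16.5%, 8.65% of 15.9%, 36.3% of 71.5% and 37.6% of 74.0%. The causes were not tested.

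The genes whose signs turned passed no adjusted test in that comparison with the settings of the report, though Gbp7 passed with upper-quartile factors in CTL (-0.39) and without LIP 96 in LIP (0.40), and Irf1 without CTL 92 in CTL (0.36). With library totals alone, Ifng gave 0.03 on day 0, Igtp -0.01 and Iigp1 -0.04 on day 2, and Gbp7 -0.14, Irf9 -0.30 and Ifngr2 -0.25 in LIP between days. With upper-quartile factors, Irf1 gave -0.04 in CTL, and Gbp7 -0.10, Irf9 -0.25 and Ifngr2 -0.20 in LIP between days. With 1 library left out, the values spanned 0 for Gbp7 (-0.01 to 0.03), Irgm1 (-0.02 to 0.10), Ifng (-0.28 to 0.45), Ifngr2 (-0.21 to 0.03) and Isg15 (-0.41 to 0.39) on day 0, for Igtp (-0.02 to 0.18) and Iigp1 (-0.12 to 0.35) on day 2, for Gbp7 (-0.30 to 0.01) and Gbp9 (-0.34 to 0.02) in CTL between days, and for Irf9 (-0.09 to 0.30) and Ifngr2 (-0.02 to 0.27) in LIP.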
